A study of Arabidopsis thaliana with 30 samples.

Results

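A set of 36 Arabidopsis thaliana genes was higher in seeds at 12 than at 8 days after flowering (DAF) in both wild types. In seeds of the fus3-3 and lec1-1 mutants these genes rose by less than 1 log2 unit or fell. The genes were chosen from 13355 measured genes by group means of the deposited log2 signal. A gene was taken where the difference of 12 minus 8 DAF was 2 log2 units or more in Col-0 and in WS, and under 1 in fus3-3 and in lec1-1. It also had to lie less than 1 unit above its own wild type at 8 DAF in each of these mutants, which removed genes raised early there by 1 unit or more. Seeds of wild-type Col-0 and WS, and of plants homozygous for fus3-3 in the Col-0 background or for lec1-1 or lec2-1 in the WS background, were taken from siliques at 8 and 12 DAF. Each of the 10 groups had 3 arrays, labelled biological replicates from triplicate batches of plants, and plants grew under long days at a constant temperature. Each regulator was represented by a single mutant allele, and each array measured whole seeds, so that embryo, endosperm and seed coat were pooled. The question was which of these genes, if any, also lost their late increase without LEC2, a comparison that the choice of genes did not use.

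During maturation the Arabidopsis embryo lays down storage protein and oil and then acquires tolerance of drying, under the control of FUS3, LEC1 and LEC2. The first and last of these have a B3 DNA-binding domain, LEC1 belongs to the NF-Y complex, and the factors act on each other's genes. Mutants in FUS3 or LEC1 make seeds that do not survive drying and take on traits of the seedling, whereas LEC2 is needed mainly earlier in embryo development and its mutant seeds mostly survive drying. FUS3, LEC1 and LEC2 themselves were not analysed here, so the genotype labels were not checked against the mutated genes.

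The array medians lay between 4.30 and 4.71 log2 units and the array minima between 1.65 and 1.76. Within groups, Pearson's r between replicates across genes (not independent of each other) was 0.984 to 0.996. A signal below 3 is read here as near background, where a difference is a lower bound. Precision is limited by there being 3 arrays in each group. The arrays of Col-0 at 12 DAF were numbered in a different way from the others but were also labelled biological replicates.

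Of the 13355 genes, 419 were higher by 2 log2 units or more at 12 DAF in Col-0, 262 in WS and 218 in both. Among these 218 late-rising genes the change was under 1 in fus3-3 for 113, in lec1-1 for 66 and in both mutants for 53. The condition at 8 DAF left 36 of the 53. The 36 genes lie on all 5 chromosomes, with 11 on chromosome 1, 1 on chromosome 2, 9 on chromosome 3, 6 on chromosome 4 and 8 on chromosome 5 by the gene table for the 35 protein-coding members. No 2 of these 35 are next to each other among protein-coding genes. The remaining member, AT3G31955, is a pseudogene in the table and was read by the only probe set of the 36 that can match several transcripts, so its signal may come from more than 1 locus.

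By the rule, the 36 genes were higher at 12 DAF by 2.04 to 5.08 log2 units in Col-0, with a median of 2.78, and by 2.02 to 5.25 in WS, with a median of 2.39. In fus3-3 the change ran from −1.31 to 0.99 with a median of 0.12, and in lec1-1 from −0.17 to 0.95 with a median of 0.41. It was above 0 for 22 of the 36 genes in fus3-3 and for 30 in lec1-1. These are counts of signs, without the share of all genes above 0 beside them. They include changes close to 0, such as 0.0001 for AT5G03640 in fus3-3, and are not read as rises. The changes in both wild types and both mutants chose the genes, and they are given without a test. In lec2-1, which the rule did not use, the change ran from 1.08 to 3.90 with a median of 1.89. Over all 13355 genes the medians of the change were 0.05 in Col-0, 0.09 in WS, 0.01 in fus3-3, −0.02 in lec1-1 and 0.01 in lec2-1.

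**Figure D1:**
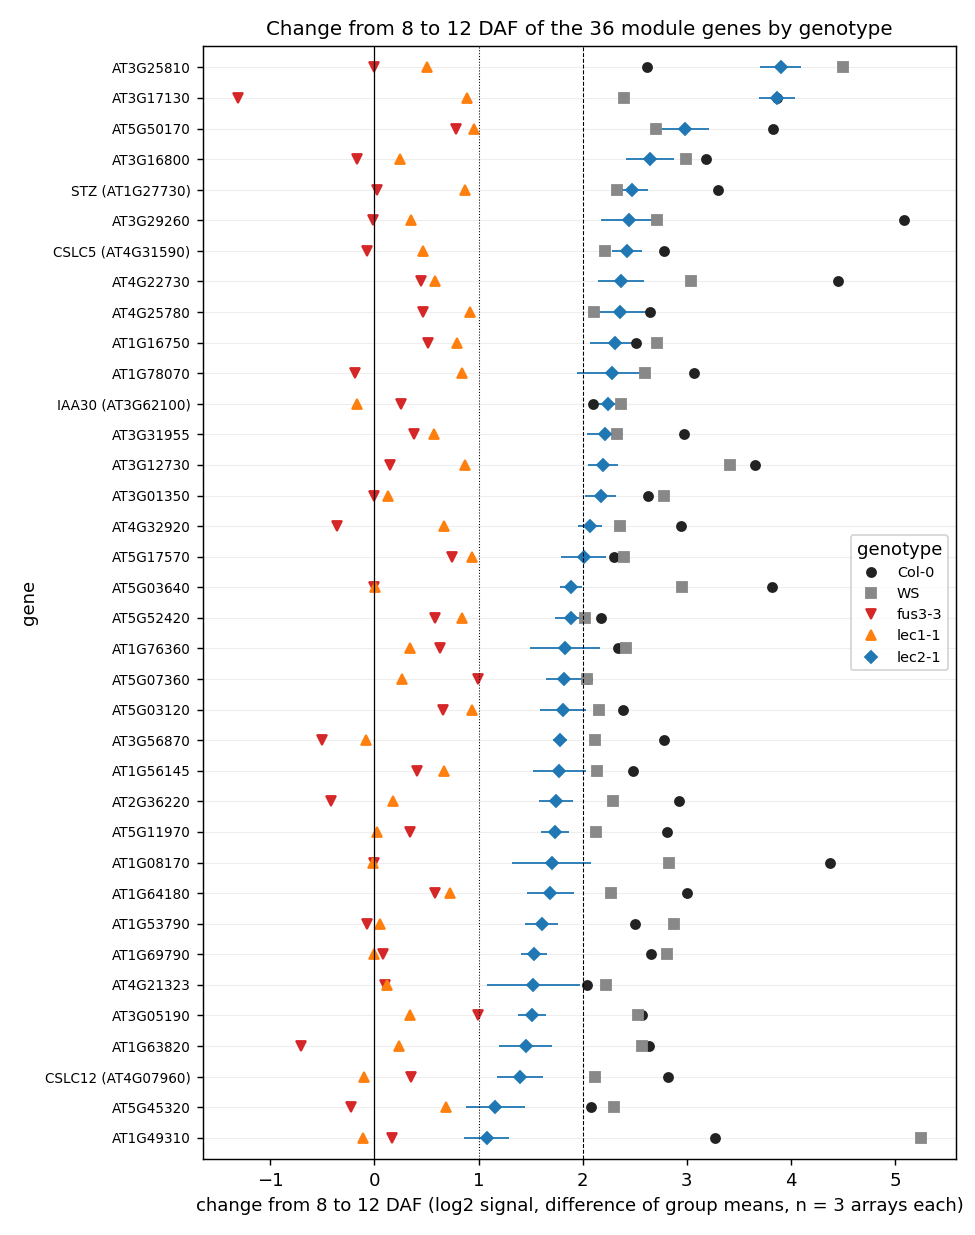
Change in log2 signal from 8 to 12 DAF of each of the 36 genes (rows, ordered by the lec2-1 change), with 1 symbol per genotype for the difference of group means (n = 3 arrays each) and a bar of 1 standard error of the fit for lec2-1. The dotted and dashed lines at 1 and 2 mark the limits that the rule set on the mutants fus3-3 and lec1-1 and on the wild types, and the lec2-1 symbols lie between 1.08 and 3.90, all to the right of both other mutants.

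Some genes lay close to a limit. Just inside the limit of 2 in Col-0 were AT4G21323 at 2.04 and AT5G07360 at 2.04, and just outside was AT5G45630 at 1.95. In WS, AT5G52420 was inside at 2.02 and AT3G03790 outside at 1.98. For the limit of 1 in fus3-3, AT5G07360 and AT3G05190 were both inside at 0.99, while AT2G44010 was outside at 1.07. For lec1-1, AT5G50170 was inside at 0.95 and AT2G40460 outside at 1.03. At 8 DAF, AT5G11970 lay 0.81 above Col-0 in fus3-3 and was kept, and AT3G25870 at 1.03 was not. AT1G78070 lay 0.71 above Col-0 in fus3-3 and 0.82 above WS in lec1-1 and was also kept. At 12 DAF its lec1-1 mean was 0.93 below that of WS, the smallest such gap of the 36. The rule therefore cuts through a continuous range of values.

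The tables used here gave a name beyond the locus number to 4 of the 36 genes, CSLC5, CSLC12, STZ and IAA30. The other 32 are given by locus, without a role. CSLC5 and CSLC12 belong to the cellulose synthase-like C family, whose enzymes make the glucan backbone of xyloglucan, a cell wall polysaccharide. STZ, also called ZAT10, is a C2H2 zinc finger transcription factor that represses genes and responds to salt, cold and other stresses. IAA30 is an Aux/IAA protein, a family of repressors of the auxin response.

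Of the cell wall genes, CSLC5 (AT4G31590) was the more strongly detected. Its log2 signal in Col-0 was 7.37, 7.57 and 7.47 at 8 DAF and 10.28, 10.47 and 10.003 at 12 DAF, whereas in fus3-3 it was 6.51, 6.59 and 6.41 and then 6.43, 6.66 and 6.22. In WS it was 7.91, 7.92 and 7.88 and then 10.23, 9.94 and 10.19, against 6.68, 6.65 and 6.28 and then 6.99, 7.13 and 6.89 in lec1-1. Thus every 12 DAF array of these mutants lay below every 8 DAF array of its own wild type. In lec2-1 the signal was 7.08, 7.22 and 6.91 at 8 DAF and 9.25, 9.82 and 9.41 at 12 DAF, with no overlap between ages. The lec2-1 rise of 2.42 ± 0.14 (standard error of the fit, n = 3 arrays per group) is 5.37-fold, at adjusted p = 1.2e-08 by limma.

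CSLC12 (AT4G07960) had a lower signal and a weaker lec2-1 rise. It went from 4.004, 4.22 and 3.91 to 6.76, 6.71 and 7.11 in Col-0 and from 5.34, 5.35 and 5.04 to 7.61, 7.51 and 6.96 in WS. In fus3-3 it was 3.87, 2.72 and 3.75 and then 3.99, 3.53 and 3.87, and in lec1-1 it was 4.80, 4.32 and 4.36 and then 4.82, 4.51 and 3.86, so that the ages overlapped in both mutants. In lec2-1 it went from 5.04, 4.93 and 4.94 to 6.42, 6.44 and 6.24, without overlap. The lec2-1 rise was 1.40 ± 0.22 log2 units, or 2.64-fold (adjusted p = 0.00018, limma), the third smallest of the 36.

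The transcription factor gene STZ (AT1G27730) was among the genes of highest signal. In Col-0 it was 6.62, 7.34 and 6.94 at 8 DAF and 10.16, 10.51 and 10.13 at 12 DAF, and in fus3-3 it was 5.89, 6.68 and 6.52 and then 6.46, 6.70 and 6.02. In WS it was 7.57, 7.90 and 8.20 and then 10.42, 10.16 and 10.10, and in lec1-1 it was 7.07, 7.01 and 6.99 and then 7.90, 7.88 and 7.91. The fus3-3 arrays overlapped between ages, while the lec1-1 arrays at 12 DAF stood above those at 8 DAF by a mean of 0.87, just within the limit of the rule. In lec2-1 STZ went from 7.51, 7.04 and 7.28 to 9.75, 9.99 and 9.52. That rise was 2.47 ± 0.16, or 5.56-fold (adjusted p = 2.1e-08, limma).

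The auxin repressor gene IAA30 (AT3G62100) moved in the same way at a middle level. It was 5.26, 5.75 and 5.44 and then 7.53, 7.55 and 7.67 in Col-0, and 5.11, 5.30 and 5.22 and then 7.81, 7.51 and 7.42 in WS. In fus3-3 it was 4.81, 4.51 and 4.40 and then 4.35, 5.31 and 4.81, and in lec1-1 it was 5.30, 5.43 and 5.70 and then 5.16, 5.33 and 5.43, with overlap between ages in both. In lec2-1 it went from 5.07, 5.07 and 4.45 to 7.11, 6.99 and 7.23, a rise of 2.25 ± 0.16 (adjusted p = 8.0e-08, limma). At 12 DAF its lec2-1 mean was 0.48 below that of WS and 1.80 above that of lec1-1.

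**Figure D2:**
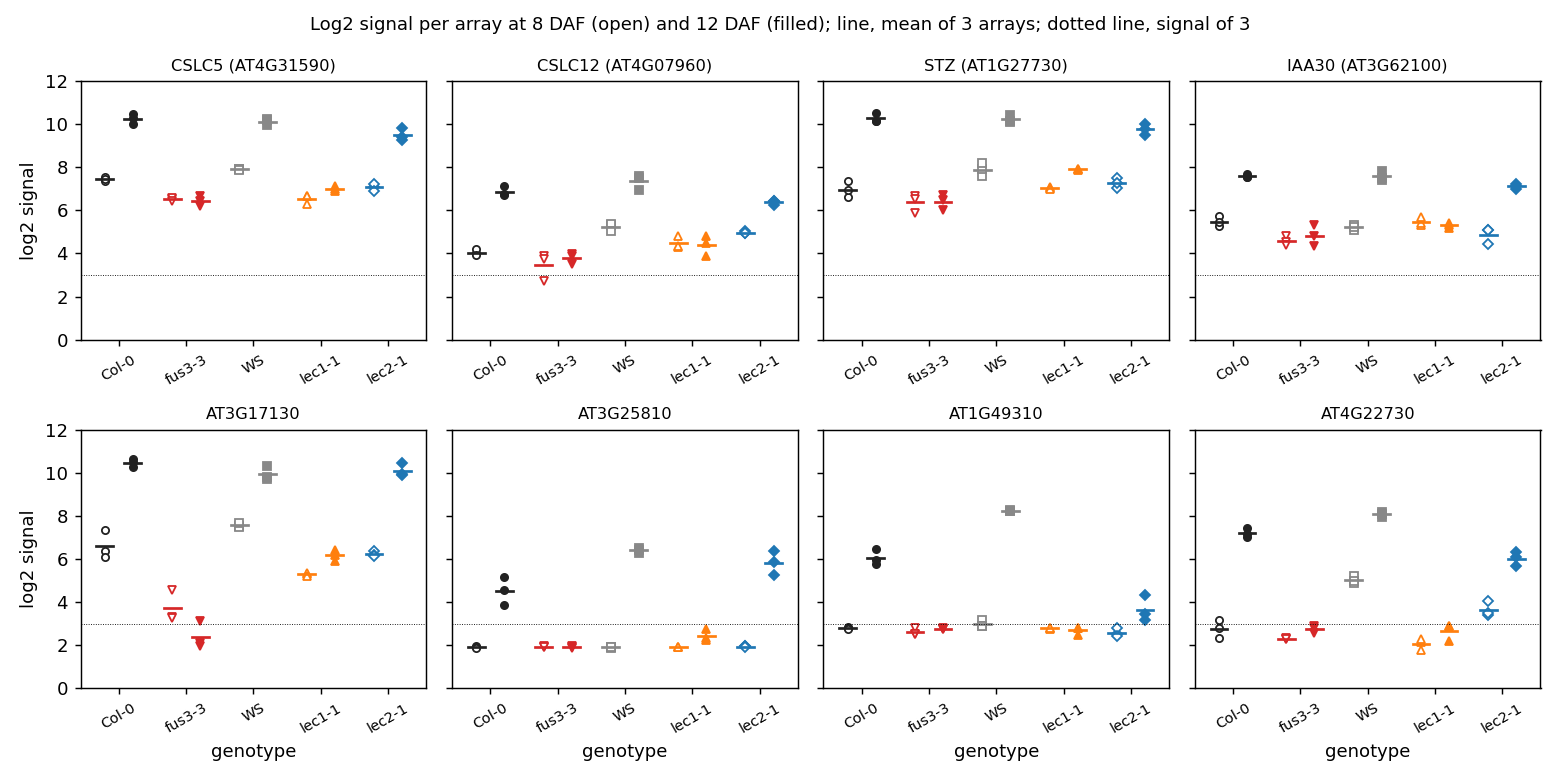
Log2 signal (vertical axis) of 8 genes on every array, with genotypes along the horizontal axis, open symbols at 8 DAF, filled symbols at 12 DAF and a line at the mean of the 3 arrays. In CSLC5, STZ and IAA30 the filled lec2-1 symbols sit close to those of WS, whereas AT1G49310 at 12 DAF has a mean of 8.23 in WS and 3.65 in lec2-1.

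By the mean over the wild-type arrays at 12 DAF, the genes of highest signal were AT5G52420 at 10.58, STZ at 10.25, AT3G17130 at 10.22, CSLC5 at 10.18 and AT3G31955 at 10.04. AT5G52420 was already at 8.63, 8.35 and 8.13 in Col-0 at 8 DAF and at 8.49, 8.55 and 8.71 in WS, the highest early level of the set. Its lec2-1 arrays went from 8.25, 8.65 and 8.25 to 10.27, 10.55 and 9.99, a rise of 1.88 ± 0.15 (adjusted p = 2.1e-07, limma). Of the 36 genes, 10 had a wild-type level of 8 or more at 12 DAF, and the lowest, AT4G21323, had 4.56.

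In fus3-3, 12.8% of all genes had every 12 DAF array below every 8 DAF array. A share no larger, 4 of the 36 genes, did so here. One of them, AT3G17130, had the widest gap between fus3-3 and Col-0 at 12 DAF, −8.08 log2 units. Its Col-0 arrays were at 7.33, 6.39 and 6.11 and then at 10.65, 10.28 and 10.50. The fus3-3 arrays were at 4.55, 3.31 and 3.28 and then at 1.96, 3.12 and 2.12, so the gene was low at 8 DAF and lower still at 12 DAF, where 2 of the 3 arrays lay near background. The other genotypes did not share this course. In lec1-1 it was 5.29, 5.34 and 5.23 and then 5.90, 6.19 and 6.43. In lec2-1 it went from 6.36, 6.17 and 6.13 to 9.88, 10.46 and 9.93, a rise of 3.87 ± 0.17 (adjusted p = 9.8e-10, limma), and at 12 DAF it was the 1 gene of the 36 whose lec2-1 mean was above that of WS, by 0.14.

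For 9 genes the late increase in wild type started from background and the fus3-3 and lec1-1 seeds stayed at background. Their means were below 3 in both wild types at 8 DAF and in fus3-3 and lec1-1 at both ages, and at 12 DAF lay between 4.31 and 7.44 in Col-0 and between 4.81 and 8.23 in WS. They were AT1G08170, AT1G49310, AT1G53790, AT1G69790, AT3G16800, AT3G25810, AT3G29260, AT4G21323 and AT5G03640. The differences between ages of these genes are lower bounds. In lec2-1 their means at 8 DAF lay between 1.93 and 2.70 and at 12 DAF between 3.65 and 5.83.

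Examples of these genes show how each genotype behaved. AT3G29260 in Col-0 was 2.42, 2.27 and 2.37 and then 7.51, 7.27 and 7.53, while fus3-3 stayed at 2.24, 2.19 and 2.18 and then 2.18, 2.21 and 2.19. AT3G25810 in WS was 1.89, 1.93 and 1.92 and then 6.28, 6.43 and 6.53, and in lec2-1 1.95, 1.95 and 1.90 and then 5.84, 6.37 and 5.28. In lec1-1 AT3G25810 was 1.93, 1.92 and 1.92 and then 2.23, 2.31 and 2.74. The lec2-1 rise of AT3G25810 was the largest of the 36, at 3.90 ± 0.20 log2 units or at least 14.9-fold, since its 8 DAF signal was at background (adjusted p = 3.0e-09, limma). AT5G03640 in Col-0 was 2.35, 2.40 and 2.41 and then 6.08, 6.75 and 5.77, and in lec2-1 2.37, 2.39 and 2.35 and then 4.36, 4.41 and 4.01. At 12 DAF its lec1-1 arrays were all at 2.40. The transcript of AT5G03640 was thus near background in all arrays of fus3-3 and lec1-1, and above it in every 12 DAF array of the other genotypes.

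**Figure D3:**
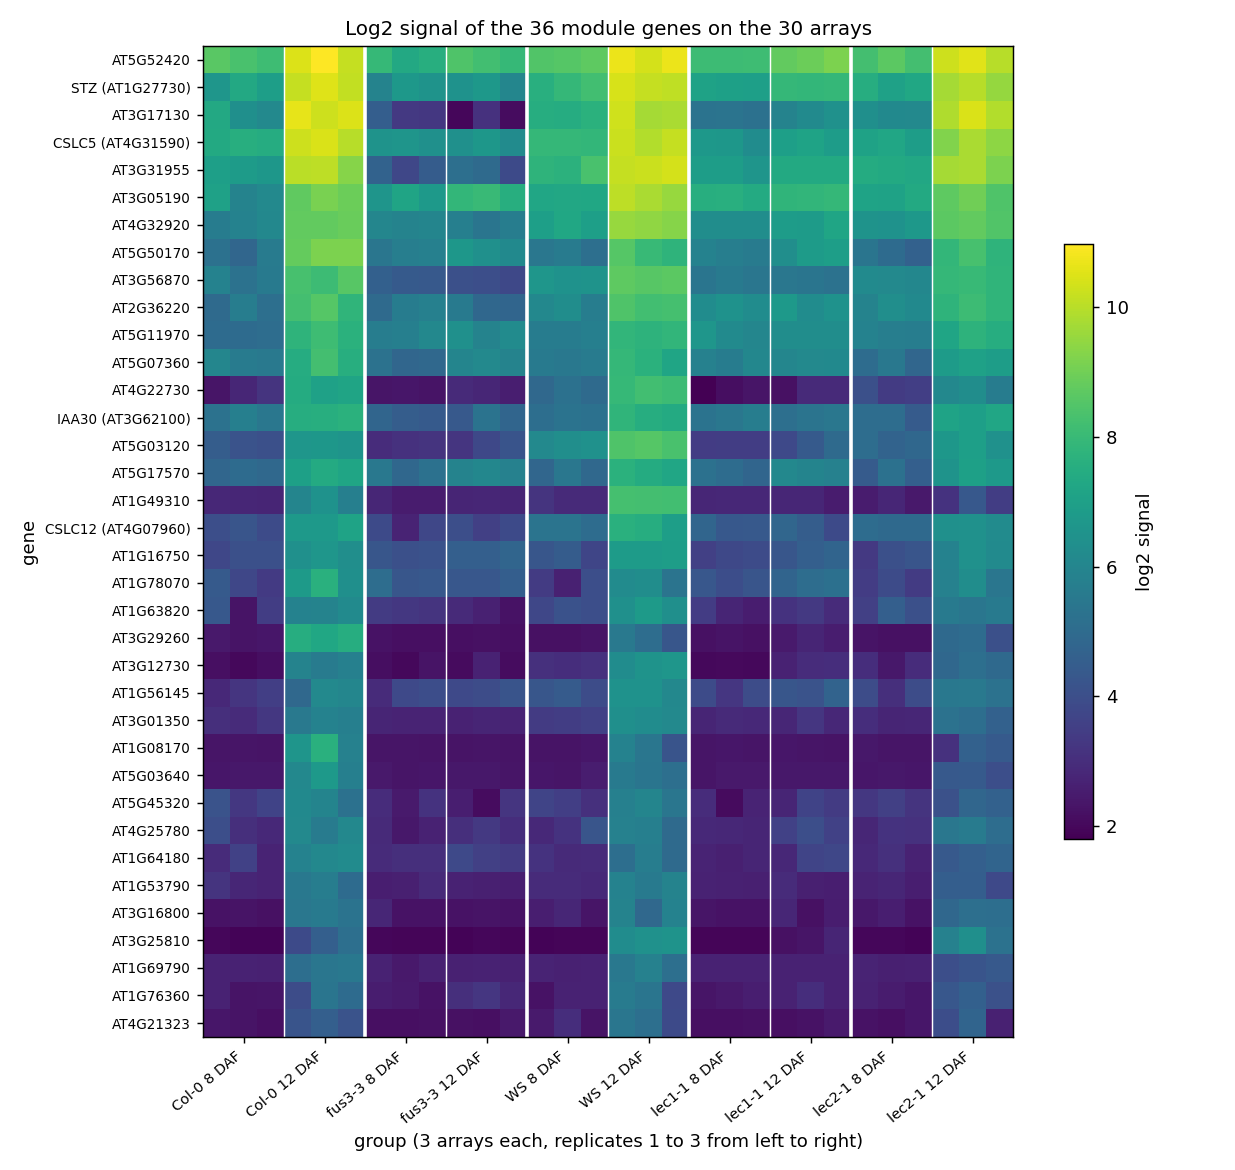
Log2 signal (colour) of the 36 genes (rows, ordered by the wild-type mean at 12 DAF) on all 30 arrays (columns, by group). The rows run from AT5G52420, at a wild-type 12 DAF mean of 10.58, down to AT4G21323 at 4.56, and the columns of Col-0, WS and lec2-1 at 12 DAF are brighter than those of the same genotypes at 8 DAF in all 36 rows by their means.

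In lec2-1 seeds, all 36 genes rose from 8 to 12 DAF, at an adjusted p below 0.05 over all 13355 genes and a change of at least 2-fold in limma. Of all genes, 6.64% rose by the same criteria and 6.34% fell. Every 12 DAF array of lec2-1 lay above every 8 DAF array for 36 of the 36, against 20.8% of all genes. Since the genes were chosen for a wild-type increase, the nearer background is the other 182 genes with a rise of 2 or more in both wild types. Of those 182, 171 rose in lec2-1 and 0 fell, a share of 94.0%, and 175 had an unadjusted p under 0.05. The set of 36 thus kept the lec2-1 rise at a share close to that of late-rising genes in general. The median lec2-1 change was 1.89 in the 36 (3.70-fold) and 2.96 in the 182. The WS rise of the 182 was not set beside it, so these medians do not compare how much of the wild-type rise was kept.

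The rise in lec2-1 was 2 log2 units or more for 17 of the 36 genes. After AT3G25810 and AT3G17130 came AT5G50170 at 2.98 ± 0.24, AT3G16800 at 2.64 ± 0.23, STZ, AT3G29260 at 2.44 ± 0.27, CSLC5 and AT4G22730 at 2.37 ± 0.22. AT4G25780 at 2.36 ± 0.30 and AT1G16750 at 2.31 ± 0.24 followed. AT5G50170 went from 5.35, 5.02 and 4.65 to 7.89, 8.31 and 7.76 in lec2-1, and from 5.43, 5.61 and 5.17 to 8.56, 7.99 and 7.76 in WS, so that the 12 DAF arrays of lec2-1 and WS overlapped.

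The smallest lec2-1 rise was that of AT1G49310, at 1.08 ± 0.22 (adjusted p = 0.0013, limma). Its arrays were at 2.502, 2.79 and 2.42 and then at 3.16, 4.33 and 3.46 in lec2-1, against 3.17, 2.88 and 2.90 and then 8.26, 8.23 and 8.21 in WS. In lec1-1 they were at 2.78, 2.81 and 2.81 and then at 2.80, 2.78 and 2.49. The lec2-1 level of this gene at 12 DAF was therefore much closer to that of lec1-1 than to that of WS. Its call ended without lec2-1 12 DAF replicate 2, where the change was 0.74, under the 2-fold minimum, and in a fit of the 6 lec2-1 arrays alone (adjusted p = 0.055, limma), with adjusted p between 0.00017 and 0.055 over all alternatives.

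AT4G21323 also rested on single arrays. Its lec2-1 arrays were at 2.26, 2.17 and 2.36 and then at 3.96, 4.77 and 2.65, a change of 1.52 ± 0.45 (adjusted p = 0.016, limma). The call ended without lec2-1 8 DAF replicate 2 (0.051), without lec2-1 12 DAF replicate 1 (0.052), without lec2-1 12 DAF replicate 2 (0.087) and with the 6 lec2-1 arrays alone (0.093), in adjusted p by limma that ran from 0.00066 to 0.093 over all alternatives. Without lec2-1 12 DAF replicate 2 its change was 1.04. Other small rises were those of AT5G45320 at 1.16 ± 0.28, CSLC12, AT1G63820 at 1.45 ± 0.25, AT3G05190 at 1.51 ± 0.13, AT1G69790 at 1.53 ± 0.13, AT1G53790 at 1.61 ± 0.16, AT1G64180 at 1.69 ± 0.23 and AT1G08170 at 1.70 ± 0.38.

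The level that lec2-1 seeds reached at 12 DAF was between those of lec1-1 and WS for 35 of the 36 genes. Because WS and lec1-1 values were used to choose the genes, these differences are described and not tested. The lec2-1 mean minus the WS mean ran from −4.59 to 0.14, with a median of −0.70, and the lec2-1 mean minus the lec1-1 mean ran from 0.80 to 3.91, with a median of 1.66. The lec2-1 mean was lower than that of WS by 1 log2 unit or more for 13 of the 36 genes, against 1.33% of all genes and 18 of the 182 other late-rising genes. After AT1G49310 the widest gaps to WS were those of AT4G22730 at −2.06, AT5G03120 at −1.75, AT3G12730 at −1.49 and AT1G53790 at −1.47.

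**Figure D4:**
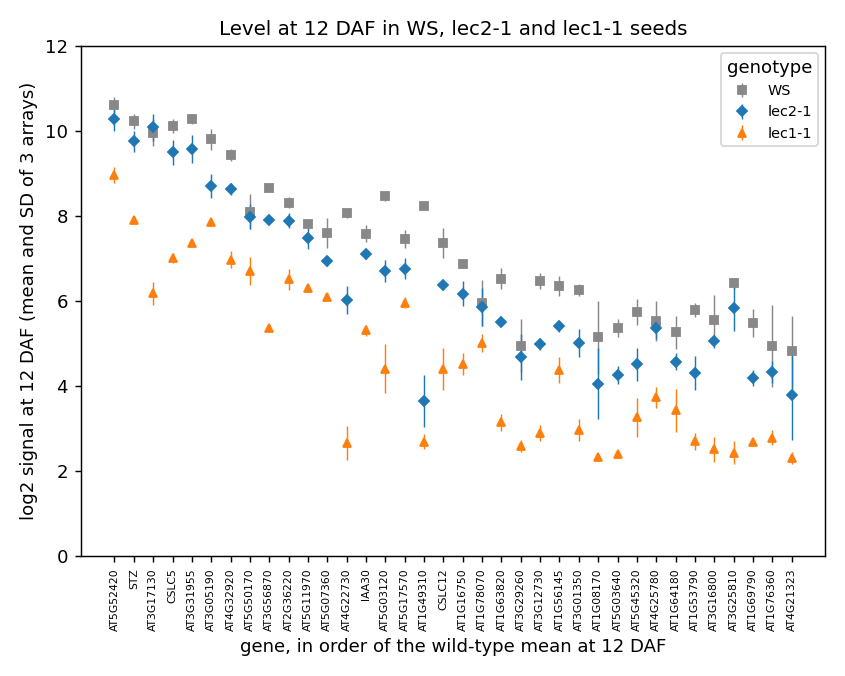
Log2 signal at 12 DAF (vertical axis, mean and SD of 3 arrays) of the 36 genes in WS, lec2-1 and lec1-1 seeds. For 35 genes the lec2-1 mean lies between the others, and for AT3G17130 it lies above WS by 0.14.

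The change from 8 to 12 DAF was smaller in lec2-1 than in WS for 31 of the 36 genes, by 1 log2 unit or more for 9, and larger for 5. The WS change of these genes was bounded from below by the rule, which affects this count. The 5 genes with a larger change in lec2-1 were AT3G17130, AT5G50170, AT4G25780, CSLC5 and STZ. AT3G17130 differed most, at 3.87 in lec2-1 against 2.39 in WS, and its lec2-1 mean at 8 DAF was 1.34 below that of WS. AT4G22730 combined a low start and a low end in lec2-1, with arrays at 4.06, 3.40 and 3.50 and then at 6.09, 6.31 and 5.66, against 4.91, 5.22 and 4.99 and then 7.96, 8.19 and 8.08 in WS. In lec1-1 the same gene was at 1.80, 2.13 and 2.30 and then at 2.20, 2.89 and 2.90, near background at both ages.

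At 8 DAF the genes differed in how close the mutants were to wild type. The rule set an upper limit on the mutant level at 8 DAF but no lower one, and the values are given without a test. In 16 of the 36 genes the fus3-3 and lec1-1 means both lay within 0.5 log2 units of the wild type. The gap to the own wild type was −1 or lower for 4 of the 36 in fus3-3, against 4.77% of all genes, and for 8 in lec1-1, against 5.80%. In lec2-1 it was that low for 3 of the 36, against 1.09% of all genes. The same 4 genes, AT3G17130, AT3G31955, AT3G56870 and AT5G03120, were that low in both fus3-3 and lec1-1.

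AT5G03120 and AT3G56870 illustrate these early-low genes. AT5G03120 was at 6.11, 6.35 and 6.43 in WS at 8 DAF, at 5.08, 4.72 and 4.88 in lec2-1 and at 3.43, 3.47 and 3.48 in lec1-1. At 12 DAF it reached 8.45, 8.57 and 8.36 in WS, 6.67, 6.99 and 6.46 in lec2-1 and 3.82, 4.41 and 4.98 in lec1-1. The order of the genotypes was the same at both ages, without overlap. AT3G56870 was at 5.85, 5.25 and 5.56 and then at 8.31, 8.10 and 8.61 in Col-0, and at 4.61, 4.40 and 4.36 and then at 4.04, 4.02 and 3.79 in fus3-3. It had the smallest standard error among the lec2-1 rises, at 1.79 ± 0.07 (adjusted p = 1.7e-10, limma).

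The well-known late maturation genes were looked up in 6 lists of late embryogenesis abundant (LEA), seed storage, oil body, raffinose, heat shock and abscisic acid or dormancy genes. Of their 128 genes 46 were measured, none of the raffinose genes among them, and 0 of the 46 belonged to the set of 36. The set holds 36 of the 13355 genes. At that share few or none of 46 genes would fall in it, so the 0 is not read as a result about these lists. The 6 LEA genes M10, M17, AT3G53040, AT1G72100, AT3G22490 and AT5G44310 were left out of the set by name, and none of them met its conditions. LEA proteins protect cells as the seed dries. Of 25 measured LEA genes, 18 rose and 2 fell from 8 to 12 DAF in Col-0, 16 rose and 3 fell in WS, and 12 rose and 1 fell in lec2-1. In fus3-3, 2 rose and 1 fell, and in lec1-1, 8 rose and 1 fell. The median change of the list was 3.70 in Col-0, 1.70 in WS, 0.96 in lec2-1, 0.39 in fus3-3 and 0.17 in lec1-1. Of all genes, 8.42% rose and 9.70% fell in Col-0, 6.45% and 8.84% in WS, 4.24% and 4.81% in fus3-3, 6.20% and 4.93% in lec1-1, and 6.64% and 6.34% in lec2-1. At 8 DAF, 14 of the 25 LEA genes were already higher in fus3-3 than in Col-0 by the same criteria, and 0 were lower. In lec1-1, 10 were higher than in WS and 2 were lower. For comparisons of a mutant with its own wild type the share of all genes called was not counted, so only medians have a background. The median gap was 1.52 in fus3-3 and 0.51 in lec1-1, against −0.02 and 0.01 over all genes. Many LEA genes thus started from a raised level in these mutants, which is not the pattern of the 36. This does not cover the whole list, since 11 genes in fus3-3 and 13 in lec1-1 were not called at 8 DAF. At 12 DAF, 11 of the 25 were lower and 7 higher in fus3-3, and 9 lower and 5 higher in lec1-1. The median gaps were then −0.74 and −0.14, against −0.06 and −0.11 over all genes. The part of early raised levels in the small age changes was not tested.

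Among 3 measured genes of abscisic acid and dormancy, the MADS-box gene AGL67 and the bZIP gene EEL rose with age in lec2-1, by 3.41 ± 0.30 (adjusted p = 6.1e-07, limma) and 1.65 ± 0.13 (adjusted p = 2.0e-07, limma), and BZIP53 stood at 0.15 ± 0.08. AGL67 also rose in fus3-3, by 2.53 ± 0.25, and in lec1-1, by 2.34 ± 0.30. EEL rose in fus3-3, by 1.25 ± 0.22 (adjusted p = 0.0045, limma), and stood at 0.87 ± 0.13 in lec1-1, under the 2-fold minimum. These rises did not bring the list to the wild-type level. At 8 DAF, 2 of the 3 genes were lower than in the own wild type in each of fus3-3 and lec1-1. At 12 DAF, 3 of the 3 were lower in fus3-3 and 2 in lec1-1, with median gaps of −2.25 and −2.33. In lec2-1, 0 of the 3 were lower than in WS at 12 DAF. Of 5 storage protein genes 2 rose with age in fus3-3 and 2 in lec1-1, against 1 in lec2-1, 2 in Col-0 and 0 in WS. In each of fus3-3 and lec1-1 1 storage gene fell, and 0 fell in the other genotypes. Of 5 oil body genes 0 rose in fus3-3, and 2 rose in each of lec1-1, lec2-1, Col-0 and WS. In each of fus3-3, lec1-1 and Col-0 1 oil body gene fell, and 0 fell in lec2-1 and WS. At 12 DAF, 5 of the 5 oil body genes were lower than in the own wild type in fus3-3 and in lec1-1. The median gaps were −2.37 and −2.51, against −0.06 and −0.11 over all genes. Of the 5 storage genes, 5 were lower in fus3-3 and 4 in lec1-1 at 12 DAF. In lec2-1, 0 genes of either list were lower than in WS at that age. For such comparisons with the own wild type the share of all genes called was not counted, so these counts have no background. Of 8 heat shock genes 2 rose in fus3-3, 3 in lec1-1, 1 in lec2-1, 4 in Col-0 and 1 in WS. At 12 DAF, 5 of the 8 were lower and 1 higher in fus3-3 than in Col-0, with a median gap of −1.39. In lec1-1, 0 were lower and 1 was higher than in WS, with a median gap of 0.10.

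Other markers moved with genotype in the same arrays. In whole seeds, fewer cells of a type and less RNA per cell cannot be told apart. Of 7 embryo markers 2 were measured, BBM and the oleosin gene OLEO3, and OLEO3 had group means from 11.02 to 14.53. The log2 of their summed signal at 12 DAF was 12.93 to 13.73 in Col-0 and 10.41 to 11.69 in fus3-3, and 13.94 to 14.18 in WS, 11.35 to 11.63 in lec1-1 and 13.84 to 14.02 in lec2-1. That sum was carried by OLEO3. BBM, a regulator of embryo development, had a mean at 12 DAF of 6.07 in Col-0, 2.65 in fus3-3, 5.91 in WS, 2.70 in lec1-1 and 3.55 in lec2-1, so lec2-1 lay below WS in BBM. The 1 measured of 6 silique wall markers, ALC, was at 3.42 to 4.15 in Col-0 and 4.96 to 5.70 in fus3-3 at 12 DAF, and at 3.21 to 3.84 in WS, 5.38 to 5.58 in lec1-1 and 4.94 to 5.11 in lec2-1.

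Of 8 endosperm markers, 3 were measured, MPC, AGL62 and IKU2, and all were below 3 in all groups at 8 DAF. Their summed signal at 12 DAF was 4.14 to 4.17 in Col-0, 5.65 to 6.30 in fus3-3, 4.25 to 4.33 in WS, 5.63 to 6.91 in lec1-1 and 4.26 to 4.89 in lec2-1. Only MPC reached a mean of 3 or more, at 5.66 in fus3-3, 6.14 in lec1-1 and 3.62 in lec2-1, and AGL62 and IKU2 stayed below 3 in all 10 groups. The 3 measured of 9 seed coat markers had a summed signal at 12 DAF of 10.37 to 10.60 in Col-0, 10.08 to 10.76 in fus3-3, 9.60 to 9.72 in WS, 9.77 to 9.99 in lec1-1 and 9.24 to 9.60 in lec2-1. That sum was carried by ARA12, with 12 DAF means from 9.34 in lec2-1 to 10.47 in fus3-3. At 12 DAF AT3G50990 was below 3 in all genotypes. BAN was at 3.70 in Col-0, 3.10 in fus3-3 and below 3 in the others. RNA quality was read from actin control probe sets as signal at the 3′ end minus that at the 5′ end, which was 5.78 to 5.97 in lec2-1 at 8 DAF and 5.24 to 5.43 at 12 DAF, and in WS 5.65 to 5.74 and then 5.32 to 5.35. The same measure of GAPDH went the other way, from 1.46 to 1.62 at 8 DAF to 2.06 to 2.32 at 12 DAF in lec2-1, and from 1.64 to 1.76 to 2.19 to 2.31 in WS. In Col-0 the actin measure was 5.49 to 5.56 at 8 DAF and 4.83 to 4.90 at 12 DAF. The latter was the lowest of the 10 groups. It was 5.54 to 5.68 and then 5.40 to 6.78 in fus3-3, and 5.92 to 6.08 and then 5.34 to 5.67 in lec1-1. One fus3-3 array at 12 DAF, replicate 2, stood at 6.78 in actin against 5.40 and 5.55 for its partners. Without that array the rule gave 38 genes, all of the 36 among them. The part of these cell types and of RNA quality in the results was not tested.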

How the data were processed

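Whole-seed RNA from 30 samples was hybridized to 1-colour Affymetrix arrays of 22810 probe sets. The deposited values are log2 signal, for which the submitters' processing notes name GCOS 1.3 and GCRMA. Whether all arrays were processed together is not given in the sources used here. Of the probe sets, 13513 were paired with 1 gene, 503 with several, 8730 with none, and 64 were controls. Each of 13355 genes was represented by its single-gene probe set with the highest mean over 30 arrays. Names came from the platform annotation and the TAIR10.1 gene table.

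Linear models were fitted with limma 3.58.1 in R 4.3.3 to the 12 arrays of the Col-0 set and, apart, the 18 of the WS set, with p-values adjusted over all genes (Benjamini-Hochberg) and calls at adjusted p under 0.05 and at least 2-fold. The fit was tested on simulated data. Figures used matplotlib 3.10.9 in Python 3.11.15. Same-numbered arrays of lec2-1 at 8 and 12 DAF had deviations correlated at −0.04, −0.08 and −0.16 and were not treated as pairs. Those of fus3-3 correlated at 0.25, 0.22 and 0.45, so the fus3-3 age comparison was also fitted with the replicate number as a block, an alternative chosen after seeing the data. The genes described, the lists and the tests were chosen with earlier results of these data known. Genes were named by level, size of the wild-type or lec2-1 change, nearness to a limit, list or symbol. AT3G56870 and AT5G03120 were taken as examples of early-low genes after their values were seen. Alternatives were renormalization, reference-gene centring, other probe set choices, limits, fits and thresholds, a replicate block and leaving out arrays.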

Additional observations from a re-analysis of the deposited data

Results flagged for a closer look

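In 4 of the 36 genes every fus3-3 array at 12 DAF was lower than every one at 8 DAF, while every Col-0 array at 12 DAF was higher than every one at 8 DAF. Of all genes, 12.8% had every fus3-3 array at 12 DAF below every one at 8 DAF, so the set held no larger a share of such genes. The fus3-3 change was above 0 for 22 of the 36 genes. The change from 8 to 12 DAF was −1.31 in fus3-3 and 3.87 in Col-0 for AT3G17130, −0.71 and 2.64 for AT1G63820, −0.51 and 2.78 for AT3G56870, and −0.36 and 2.95 for AT4G32920. The rule asked for a change under 1 in fus3-3, not for a negative one. These differences were not tested, since the rule used both groups. Groups of 3 arrays were too small for a check for single outlying arrays.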

How the results depend on the processing

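The number of genes that met the rule was 36, and it moved to 105 with a wild-type limit of 1.5, to 16 with a limit of 2.5 and to 16 with a mutant limit of 0.5. Renormalization by quantiles gave 41 genes with 34 of the 36 among them, centring on 9 reference genes 34 genes with 30 of the 36, and the mean of all single-gene probe sets 36. Leaving out each of 24 arrays gave 32 to 41 genes, and 22 of the 36 were kept whichever array was left out. The count of the 36 called in lec2-1 was 34 to 36 under all alternatives, and 34 to 36 without each lec2-1 array. It was 35 with the filter at the 40th percentile, which left 35 genes to test, and 35 at adjusted p under 0.01. The median lec2-1 change ran from 1.78 to 2.02 without each lec2-1 array. With the replicate block 36 of the 36 were called, and 1737 genes in all against 1734. A replicate block within fus3-3, chosen after seeing the data, gave 595 genes higher and 647 lower there at 12 DAF against 566 and 642 without it, and the counts of the 5 measured late maturation lists were the same. The count of all called genes moved to 3395 with all probe sets except controls, where more features were tested, and to 4276 with no fold minimum, and was 1634 to 1810 without each lec2-1 array. Of 503 pairs of gene and alternative, 6 lost the call, all in AT1G49310 and AT4G21323, and 0 reversed.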
